A study of Danio rerio with 2 samples.

Results

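Heat shock proteins and their partners are the cell's folding machinery, and 100 of the 24539 genes in a testis-versus-ovary table of adult zebrafish belong to them by name. They were taken as every row whose gene symbol, case ignored, begins with hspa, hspb, hspd, hspe, hsp90, hsp70, hsf, dnaja, dnajb or dnajc, or is cct followed by a digit. The testis group was wild-type adult zebrafish testis and the ovary group was wild-type adult zebrafish ovary. Each organ gave 1 library of RNA sequencing, and each library pooled 3 adults, with no treatment or transgene named. The question, from the study's title, is which genes are biased towards one sex. The values are FPKM, fragments per kilobase of gene length scaled to the size of the library, so levels can be set side by side between genes. No organ has a second library, so differences have no replicate check and carry no p-value.

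HSP70 proteins bind unfolded stretches of other proteins and release them in a cycle driven by ATP. J proteins, whose genes are named dnaj, bring clients to HSP70 and start that cycle, and exchange factors such as the HSP110 proteins end it. HSP90 finishes the folding of signalling proteins, CCT and HSP60 are barrel-shaped chaperonins, and small heat shock proteins hold unfolding proteins in solution. Heat shock factors are the transcription factors that switch many of these genes on under stress, and some of them act in germ cell development. The endoplasmic reticulum (ER) and the mitochondrion each have their own HSP70, J proteins and partners.

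The log2 ratio used below is that of testis FPKM + 1 over ovary FPKM + 1, which understates differences of low genes. A call of higher in testis or ovary needs a log2 ratio of at least 1 in size and 1 FPKM in the higher organ. Of the 100 members, 87 reached 1 FPKM in at least 1 library. The call fell to testis for 26 of these and to ovary for 18, and 43 lay within 2-fold. The background over all 19053 such genes was 45.1% higher in testis and 16.6% higher in ovary, and the members gave 29.9% and 20.7%. Of the 26 members called towards testis, 9 were under 1 FPKM in ovary and could pass the minimum only through testis. They were hsf5, dnaja, HSPA2, HSPA4L, HSPA12B, DNAJB4, DNAJB14, HSPB8 and hspb6. Of the 18 called towards ovary, 1 (hspa1b) could pass only through ovary. Among all genes, 18303 reached 1 FPKM in testis and 12747 in ovary. With a minimum of 10 FPKM, chosen after seeing the data, the background became 36.1% higher in testis and 24.5% higher in ovary. Of 73 members past that minimum, 18 (24.7%) were then called towards testis and 16 (21.9%) towards ovary. Under the 2-fold rule, the share of members called towards testis was thus below the background at both minimums, and the share towards ovary lay near it. Under a 4-fold rule the shares towards testis were nearly alike, with 18 of the 87 members and 4106 of the 19053 genes. Testis then held 81.8% of called members against 77.7% of all called genes. With the 1 FPKM minimum, the median log2 ratio of the members was 0.50, and that of all genes was 0.80. With the 10 FPKM minimum these medians were 0.30 and 0.23, in the reverse order. The 13 members under 1 FPKM in both libraries were HSF4, HSPA12A, hspa12a.1, hspa12a.2, HSPB2, HSPB7, hspb9, hspb9l, hspb15, DNAJB5, DNAJC5B, DNAJC22 and 1 of 2 identifiers named DNAJC16.

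The scale of the libraries bears on every count. Setting the median log2 ratio of all genes to 0 is a shift of 0.80, and a trimmed mean of log ratios is a shift of 0.98. The first gave 18 members higher in testis and 32 higher in ovary, and the second gave 19 and 33. Testis then held 36.0% and 36.5% of the called members, against 59.1% on the deposited scale. The whole table swung alike, with testis holding 45.3% and 48.6% of all called genes under these 2 shifts, against 73.1% on the deposited scale. Of all genes past 1 FPKM, 25.1% were called towards testis and 30.3% towards ovary under the first shift, and 30.9% and 32.8% under the second. Both shifts move every ratio towards ovary, so all 18 members called higher in ovary were bound to stay called. Of the 26 called higher in testis, 18 and 19 were still called. Other settings can remove calls in both directions. A pseudocount of 5 kept 20 of the 26 and 16 of the 18, and a 4-fold rule kept 18 and 4. Another scaling, by the total without the most abundant genes, gave 25 members towards testis and 19 towards ovary. Directions below are on the deposited scale, and a small difference towards testis can turn round under either shift. Markers of the organs stood as the labels say, with the 7 testis markers (among them amh, insl3 and SYCP3) all higher in testis and the 7 ovary markers (among them zp3b, GDF9 and buc) all higher in ovary. In whole organs, fewer cells of a type and less RNA per cell cannot be told apart.

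**Figure D1:**
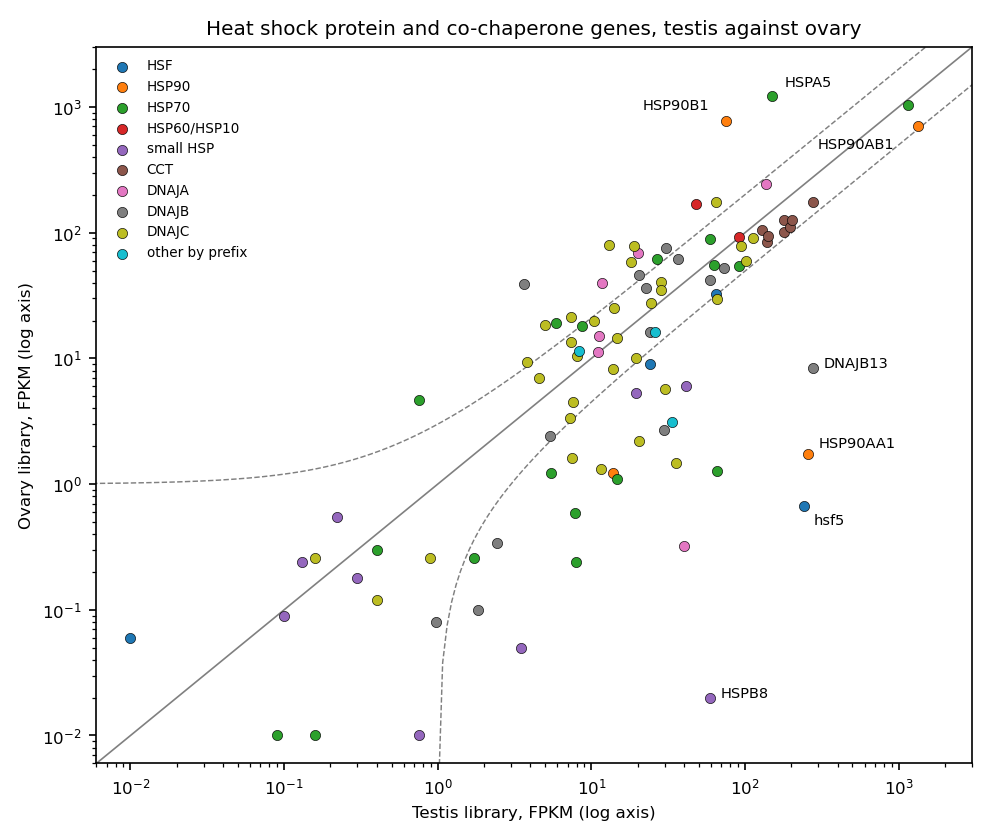
FPKM of each of the 100 members in the testis library (x axis) and the ovary library (y axis), both on log axes, coloured by family. The solid line marks equal values and the dashed lines the 2-fold rule on the log2(FPKM + 1) scale; hsf5, HSP90AA1, HSPB8 and DNAJB13 lie far towards testis, and HSPA5 and HSP90B1 far towards ovary.

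As a whole the chaperones took nearly the same share of both libraries, but the ER members took more of it in ovary. Summed over the 100 members, FPKM came to 7066 in testis, 1.26% of that library, and 7022 in ovary, 1.23%. Members that reside in the ER made up 5.82% of the chaperone sum in testis and 35.3% in ovary. Most of their sum in ovary, 2475 FPKM, came from HSPA5 (1229 FPKM) and HSP90B1 (776 FPKM). The J proteins of the ER made up 2.50% of the chaperone sum in testis and 6.46% in ovary. Members outside the ER and the mitochondrion made up 89.6% in testis and 57.4% in ovary, and mitochondrial members 4.55% and 7.33%. The grouping by place in the cell follows textbook location and was made after the values were seen.

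**Figure D2:**
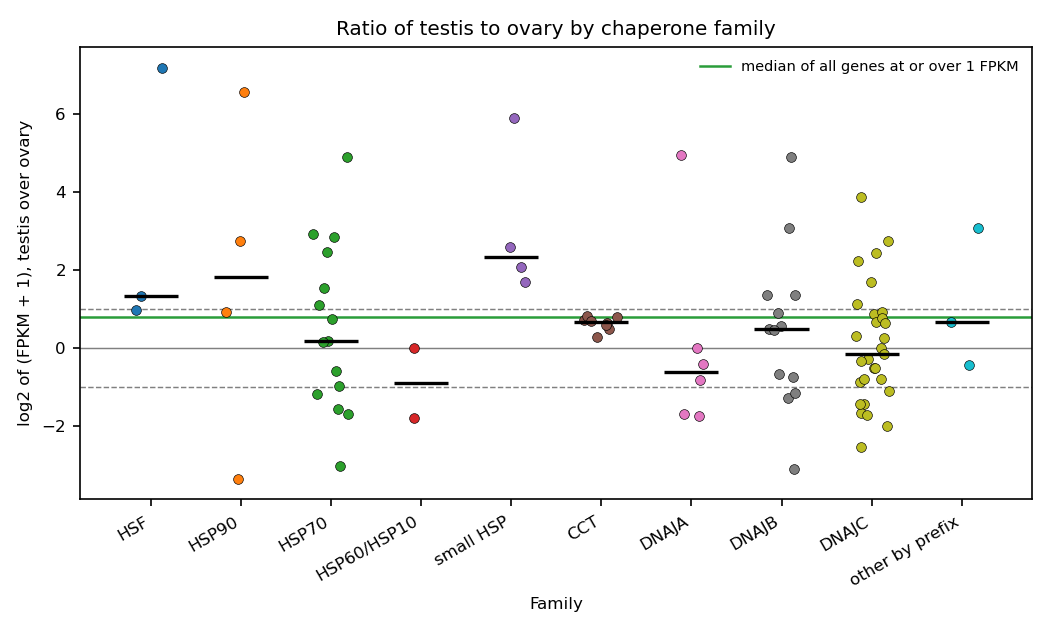
Log2 ratio of testis to ovary, computed as log2 of (FPKM + 1) over (FPKM + 1), for the 87 members that reached 1 FPKM, by family. Points are genes, black bars family medians, dashed lines the 2-fold rule and the green line the median of all genes, 0.80; the CCT subunits lie within a narrow band and the other large families spread to both sides of 0.

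The heat shock factors were led by hsf5, which in zebrafish is needed for male meiosis. It stood at 241 FPKM in testis against 0.67 in ovary, a log2 ratio of 7.18, the largest of all members. By that ratio it ranked 31 of the 19053 genes towards testis. The stress regulator hsf1 stood at 24.2 FPKM in testis against 8.97 in ovary, and HSF2, a partner of hsf1 that also acts in development, at 64.2 in testis against 32.3 in ovary. Only hsf1 and hsf5 were called higher in testis. The log2 ratio of hsf1, 1.34, became 0.54 under the median shift and 0.42 under the trimmed mean, both short of 2-fold, while HSF2 missed the 2-fold rule on the deposited scale as well (0.97). The lens factor HSF4 was listed at the table's lowest value, 0.01 FPKM, in testis and at 0.06 in ovary. HSF2BP meets the naming rule but encodes a binding partner of HSF2 that in mouse acts in meiotic recombination. It stood at 33.4 FPKM in testis against 3.12 in ovary.

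The HSP90 family differed by gene more than by its sum. Its 4 genes summed to 1672 FPKM in testis against 1481 in ovary. HSP90AB1, the constitutive cytosolic form, was the most abundant member in testis at 1327 FPKM, against 702 in ovary, a difference just short of 2-fold (log2 ratio 0.92). HSP90AA1 stood at 256 FPKM in testis against 1.74 in ovary, a 147-fold difference; in mouse the cytosolic alpha form of HSP90 is needed for male meiosis. hsp90aa1.1, which zebrafish muscle needs to fold myosin, stood at 13.8 FPKM in testis against 1.22 in ovary. The RefSeq gene table of assembly GRCz12tu lists hsp90aa1.1 next to a sister copy with no gene between them. Whether that copy is the identifier named HSP90AA1 was not established here, and the division of reads between such copies is uncertain. HSP90B1, the HSP90 of the ER, went the other way, at 75.5 FPKM in testis against 776 in ovary, 10.3-fold higher in ovary. It made up 4.52% of the HSP90 sum in testis and 52.4% in ovary. The HSP90B1 level was 0.0569 times that of HSP90AB1 in testis and 1.1 times in ovary, ratios within a library that no scaling changes.

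In the HSP70 family, summed levels were 1667 FPKM in testis against 2576 in ovary, and 15 of 18 members reached 1 FPKM. Calls went to testis for 6 (40.0%, near the 45.1% of all genes), to ovary for 4 (26.7%, against 16.6%) and to neither for 5. Both shifts turned this to 4 for testis (26.7%) and 6 for ovary (40.0%), as the whole table turned with them. Over all genes these shares were 25.1% and 30.3% under the median shift, and 30.9% and 32.8% under the trimmed mean. Among the called members, HSPA2, HSPA4L and HSPA12B could pass the 1 FPKM minimum only through testis, and hspa1b only through ovary. The constitutive cytosolic HSP70 gene HSPA8 (ENSDARG00000068992) stood at 1158 FPKM in testis against 1041 in ovary. HSPA5, the HSP70 of the ER also called BiP, stood at 151 FPKM in testis against 1229 in ovary, 8.15-fold higher in ovary. It was the most abundant member in ovary, at rank 54 of all genes there, against rank 495 in testis. HSPA5 made up 9.04% of the HSP70 sum in testis and 47.7% in ovary, and its level was 0.130 times that of HSPA8 in testis and 1.18 times in ovary.

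A second identifier named HSPA8 (ENSDARG00000037403) was 51.6-fold higher in testis, at 66.1 FPKM in testis against 1.28 in ovary. Other HSP70 genes towards testis were low. HSPA2, whose mouse counterpart is a meiotic chaperone, stood at 7.77 FPKM in testis against 0.59 in ovary. HSPA4L, an HSP110-type gene that sperm development uses in mouse, stood at 7.88 in testis against 0.24 in ovary. HSPA12B, known from blood vessels, stood at 1.71 in testis against 0.26 in ovary and lost its call under both shifts. The broadly used exchange factor gene HSPA4, carried by 2 identifiers, stood at 91.3 and 62.4 FPKM in testis, against 54.0 and 55.3 in ovary.

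Heat-inducible HSP70 genes did not share a direction on any scale used. hsp70l, the inducible gene whose promoter is widely used in zebrafish, stood at 14.8 FPKM in testis against 1.1 in ovary. hsp70.3 stood at 5.42 in testis against 1.23 in ovary, but lost its call under both shifts (log2 ratio 1.53, then 0.73 and 0.83). hsp70.1 stood at 5.91 in testis against 19.3 in ovary, and hspa1b at 0.76 in testis against 4.69 in ovary. The RefSeq table lists hsp70.1 and hsp70.3 in 1 tandem group with hsp70.2 between them. Reads of such near-identical copies can be assigned to the wrong one, so the opposite directions of hsp70.1 and hsp70.3 are uncertain. Among the remaining members, HSPA14, an HSP70 that works at the ribosome, stood at 26.7 FPKM in testis against 61.4 in ovary. HSPA13, an HSP70-like gene of the ER, stood at 8.65 in testis against 18.0 in ovary, just within the 2-fold rule. HSPA9, the mitochondrial HSP70, stood at 58.7 in testis against 89.1 in ovary.

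Members of the ER were mostly at higher levels in ovary. Of 13 identifiers, 12 reached 1 FPKM, none were called towards testis and 7 (58.3%) towards ovary, against 16.6% of all genes. The median log2 ratio was -1.35, against 0.80 for all genes. Under the shifts the median was -2.14 and -2.28, with 9 of the 12 higher in ovary in each case. Over all genes the shares towards ovary rose as well, to 30.3% and 32.8%. With a pseudocount of 0.1, 1 member, the second DNAJB9 identifier, was called higher in testis. This grouping leaves out J proteins of the ER membrane that face the cytosol, the genes DNAJB12, DNAJB14, dnajc14 and dnajc18. With them, as a choice made after seeing the data, 2 of 17 members past 1 FPKM (DNAJB14 and dnajc18) were called towards testis and 8 towards ovary, with a median log2 ratio of -0.98. Beside HSPA5 and HSP90B1, the called genes of the narrower grouping encode 5 J proteins of the ER, whose HSP70 partner is HSPA5. DNAJB9 (ENSDARG00000016886), a target of the unfolded protein response, stood at 3.65 FPKM in testis against 38.8 in ovary. dnajc3a, a J protein of the same response, stood at 13.0 in testis against 80.5 in ovary. DNAJB11, which binds newly made secreted proteins, stood at 30.7 in testis against 75.6 in ovary. DNAJC1, a J protein of the ER membrane that contacts ribosomes, stood at 64.7 in testis against 175 in ovary, and DNAJC25 at 7.38 in testis against 21.5 in ovary. DNAJC10, an ER reductase, stood at 28.4 in testis against 40.5 in ovary and was not called.

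ER folding genes outside the naming rule also held more calls towards ovary. In a list of 22 identifiers, 3 were called towards testis, 10 towards ovary (45.5%, against 16.6% of all genes) and 9 neither way, with a median log2 ratio of -0.98. The disulphide isomerase gene P4HB stood at 36.5 FPKM in testis against 488 in ovary, and its relative PDIA4 at 41.5 in testis against 423 in ovary. XBP1, a transcription factor of the unfolded protein response, stood at 47.5 in testis against 455 in ovary. The lectin chaperone gene calr3a stood at 97.2 in testis against 391 in ovary, and the HSPA5 exchange factors HYOU1 and SIL1 stood at 30.9 and 9.97 in testis, against 222 and 29.9 in ovary. The 3 genes towards testis were CLGN, at 141 FPKM in testis against 6.53 in ovary, and both identifiers of SERPINH1. In mouse CLGN is a chaperone of male germ cells. SERPINH1 is a collagen chaperone, at 14.4 and 8.76 in testis, against 0.34 and 1.03 in ovary, and the first could pass only through testis. Markers of smooth muscle and stroma, which make collagen, moved with SERPINH1. All 6 were called higher in testis, against 45.1% of all genes, and DCN (0.99 FPKM in ovary) could pass only through testis. Their summed level was 965 FPKM in testis against 35.0 in ovary, and their part in the SERPINH1 values was not tested.

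**Figure D3:**
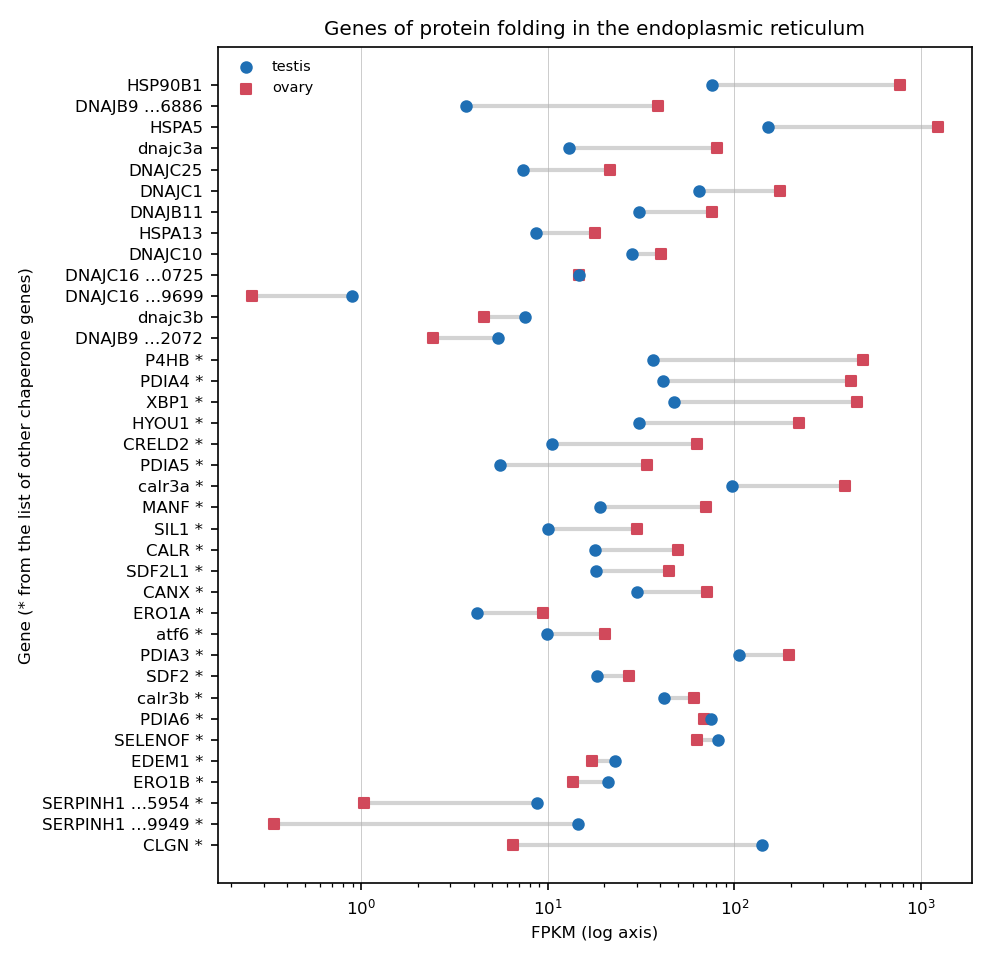
FPKM in testis (circles) and ovary (squares), on a log axis, of the 13 ER members, then of the list of ER folding genes with the exchange factors HYOU1 and SIL1, marked with an asterisk, each group ordered by its log2 ratio. Digits after a repeated symbol are the last of its identifier. The squares of HSP90B1, HSPA5, P4HB, PDIA4 and XBP1 stand far right of their circles, and the circle of CLGN far right of its square.

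In mitochondria, the pair that forms the folding barrel had unlike ratios. HSPD1, the HSP60 barrel, stood at 48.0 FPKM in testis against 169 in ovary, whereas HSPE1, the HSP10 lid, stood at 91.6 in both libraries. The level of HSPD1 was 0.524 times that of HSPE1 in testis and 1.85 times in ovary. RefSeq lists the genes side by side with none between them. DNAJA3, a J protein of the mitochondrial HSP70, stood at 20.2 FPKM in testis against 69.0 in ovary, while its sister dnaja3b stood at 11.1 in testis against 11.2 in ovary. DNAJC19, part of the import motor, stood at 19.4 in testis against 10.1 in ovary, and DNAJC15, its relative, at 10.4 in testis against 19.7 in ovary. Of 11 mitochondrial members, 1 was called towards testis (9.1%, against 45.1% of all genes), 2 towards ovary (18.2%, near the 16.6% of all genes) and 8 neither way. Both shifts gave 6 towards ovary (54.5%, against 30.3% and 32.8% of all genes). The 1 towards testis was the second identifier named DNAJC11 (11.6 FPKM in testis, 1.32 in ovary). The first, a gene of the mitochondrial inner membrane contact sites, stood at 28.4 in testis against 34.8 in ovary. DNAJC28 stood at 13.8 in testis against 8.27 in ovary and dnajc30b at 8.11 in testis against 10.5 in ovary. A list of other mitochondrial folding genes gave 19 identifiers, 9 of which carry the symbol HTRA2. Of the 19, 4 were called towards testis (21.1%, against 45.1% of all genes) and 1 towards ovary (5.3%, against 16.6%). Of those called towards testis, the HTRA2 identifiers were under 1 FPKM in ovary and could pass the minimum only through testis. The median shift gave 1 against 8 (5.3% and 42.1%, against 25.1% and 30.3% of all genes). The trimmed mean gave 2 against 9 (10.5% and 47.4%, against 30.9% and 32.8%). By the mean of both libraries the most abundant was the protease subunit gene CLPP, which stood at 37.0 FPKM in testis against 42.1 in ovary. The protease gene LONP1 stood at 28.0 in testis against 45.1 in ovary, and both largest ratios were identifiers of HTRA2 (7.25 FPKM in testis against 0.63 in ovary, and 10.7 in testis against 31.7 in ovary).

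The subunits of CCT, the cytosolic chaperonin that folds actin and tubulin, lay within a narrow band. The 8 identifiers had 129 to 279 FPKM in testis against 84.2 to 177 in ovary, and none reached 2-fold. Each had the larger value in testis on the deposited scale, a direction that turned round in their median under both shifts. The log2 ratios ran from 0.30 for CCT4 to 0.82 for CCT5, with a median of 0.67. This was a little below the 0.80 of all genes with the 1 FPKM minimum, but above the 0.23 with the 10 FPKM minimum. Every CCT identifier was past 10 FPKM in each organ. Among all genes for which this held, the median was -0.10 and 62.4% lay within 2-fold. The CCT median was -0.13 and -0.31 under the shifts, so no direction can be given for the complex. CCT6B was the most abundant, at 279 FPKM in testis against 177 in ovary, followed in testis by CCT8 (202 in testis, 125 in ovary) and CCT7 (196 in testis, 112 in ovary). CCT3 stood at 180 in testis against 127 in ovary, CCT5 at 178 in testis against 101 in ovary, and CCT4 at 129 in testis against 105 in ovary. Both identifiers named cct2, between which the division of reads is uncertain, stood at 139 and 142 FPKM in testis, against 84.2 and 93.6 in ovary. TCP1, the subunit that the naming rule does not reach, stood at 123 in testis against 93.8 in ovary, with a log2 ratio of 0.38 inside the range of the others. Of the 3 helper genes listed with it, TXNDC9 stood at 60.5 in testis against 32.0 in ovary and PDCL3 at 37.3 in testis against 25.7 in ovary, both within 2-fold, and PDCL was higher in testis (48.1 in testis, 19.6 in ovary).

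**Figure D4:**
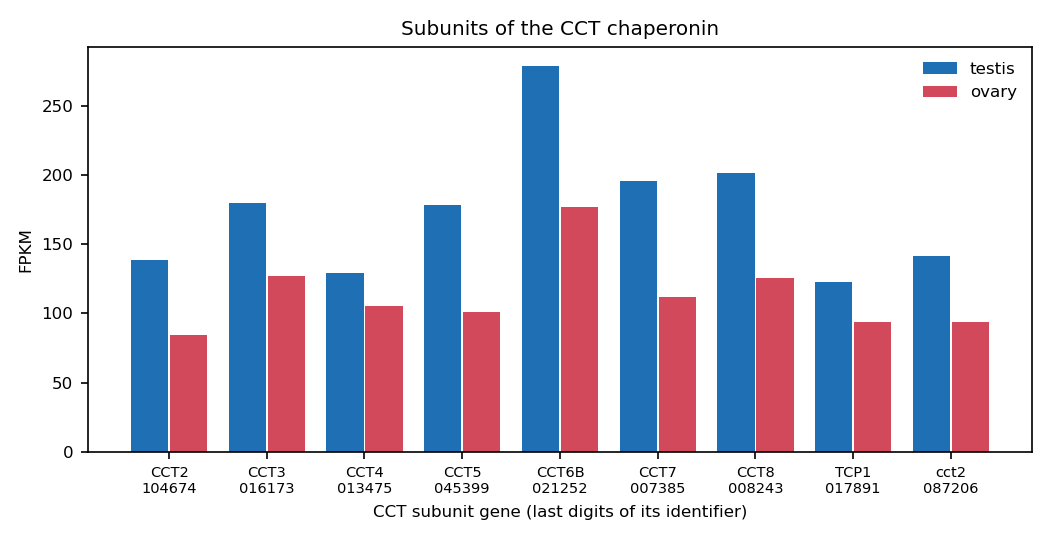
FPKM of the 8 CCT identifiers and of TCP1, with testis bars left of ovary bars and the last digits of each identifier below its symbol. Every testis bar is taller than its ovary bar, by 1.23-fold for CCT4 to 1.77-fold for CCT5 among the CCT symbols, on the deposited scale; the median of the complex turns below 0 under both shifts.

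Prefoldin hands actin and tubulin to CCT. Of 9 prefoldin and prefoldin-like genes, 8 were within 2-fold and VBP1 was higher in ovary (20.8 FPKM in testis, 46.3 in ovary). Under both shifts 4 of 9 were higher in ovary (44.4%, against 30.3% and 32.8% of all genes). PFDN5 stood at 44.2 in testis against 72.8 in ovary, PFDN6 at 62.3 in testis against 37.6 in ovary, and PFDN4 at 45.0 in testis against 39.0 in ovary.

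Small heat shock genes were either low in both organs or higher in testis. Only 4 of 9 reached 1 FPKM, and these 4 were all called higher in testis, against 45.1% of all genes. Both shifts left 3 of the 4, against 25.1% and 30.9% of all genes. HSPB8 and hspb6 were under 1 FPKM in ovary and could pass the minimum only through testis. HSPB8, which works with BAG3 to clear damaged proteins, stood at 58.9 FPKM in testis against 0.02 in ovary. BAG3 stood at 11.3 in testis against 0.89 in ovary. HSPB1, a small heat shock gene of muscle and many other tissues, stood at 19.4 in testis against 5.29 in ovary, and lost its call under both shifts. hspb6, known from heart and smooth muscle, stood at 3.46 in testis against 0.05 in ovary. hspb11 stood at 41.4 in testis against 6.03 in ovary; the human gene of that symbol encodes a part of the intraflagellar transport machinery of cilia, and whether the zebrafish identifier is its counterpart was not established here. HSPB2 was listed at the lowest value in ovary and at 0.76 FPKM in testis, and the other 4 stood at 0.55 FPKM or less. Outside the naming rule, CRYAB, the alpha-B crystallin relative of these genes, stood at 14.9 FPKM in testis against 0.10 in ovary, and its second identifier stayed under 1 FPKM.

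Markers of muscle moved with the small heat shock genes and with hsp90aa1.1. Of 12 identifiers of skeletal and heart muscle markers, 9 reached 1 FPKM. Of these, 8 were called towards testis (88.9%, against 45.1% of all genes) and 1 towards ovary. Among the 8, ckma, ckmb, pvalb4 and 1 TNNT3 identifier were under 1 FPKM in ovary and could pass only through testis. The 12 summed to 169 FPKM in testis against 14.9 in ovary. Of the heart genes, MYL7 had 0.43 FPKM and cmlc1 0.13 FPKM in testis, and both were listed at the lowest value in ovary. acta2 and both identifiers of TAGLN, genes of smooth muscle, stood at 197, 398 and 66.8 FPKM in testis, against 5.52, 16.7 and 1.55 in ovary. UNC45B, the myosin chaperone that works with HSP90 in muscle, stood at 6.39 in testis against 0.83 in ovary. The part of muscle cells in these values was not tested. Markers of blood, immune cells and liver (4, 4 and 5 identifiers) were likewise all called towards testis, against 45.1% of all genes. Their sums were 216, 143 and 72.1 FPKM in testis and 14.6, 8.47 and 2.10 in ovary. Among them, hbaa2, cahz, alas2, ptprc, fabp10a, apoa2, apoa1b and serpina1 were under 1 FPKM in ovary and could pass only through testis.

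The J proteins, 52 identifiers in all, had about as many calls in each direction on the deposited scale, and more towards ovary under the shifts. Summed FPKM was 1621 in testis against 1694 in ovary, and of 48 that reached 1 FPKM, 11 were called towards testis (22.9%), 12 towards ovary (25%) and 25 neither way. Over all genes these shares were 45.1% and 16.6%. The shifts gave 7 towards testis against 23 towards ovary (14.6% and 47.9%, against 25.1% and 30.3% of all genes), and 8 against 24 (16.7% and 50.0%, against 30.9% and 32.8%). Type A and type B proteins are the general partners of HSP70, and type C proteins tie it to particular tasks. DNAJA2 (ENSDARG00000104066) was the most abundant J protein gene of the ovary, at 137 FPKM in testis against 242 in ovary. The second DNAJA2 identifier was higher in ovary, at 11.7 in testis against 39.6 in ovary, and dnaja1 stood at 11.2 in testis against 15.2 in ovary. A gene named only dnaja stood far from them, at 39.8 FPKM in testis against 0.32 in ovary, 124-fold higher in testis.

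Among type B genes, DNAJB13 had the largest difference. It encodes a J protein built into the radial spokes of motile cilia and sperm tails, and it stood at 279 FPKM in testis against 8.45 in ovary, the most abundant J protein gene of the testis. dnajb2, whose human counterpart links HSP70 to ubiquitin, stood at 29.7 in testis against 2.68 in ovary. The general HSP70 partners dnajb1a and dnajb1b stood at 24.2 and 59.4 FPKM in testis, against 16.1 and 41.7 in ovary. DNAJB12, a J protein of the ER membrane that faces the cytosol, stood at 36.6 and 22.7 for its 2 identifiers in testis, against 61.8 and 36.3 in ovary. DNAJB14, its relative, was low, at 1.84 in testis against 0.10 in ovary, as was DNAJB4, at 2.43 in testis against 0.34 in ovary. DNAJB6 proteins, which keep aggregating proteins apart, divided between sisters: dnajb6a stood at 72.6 in testis against 52.2 in ovary, and dnajb6b at 20.4 in testis against 46.1 in ovary, a call towards ovary.

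Type C genes outside the mitochondria and the narrower ER grouping serve many tasks. The 2 for J proteins of the ribosome were higher in ovary. DNAJC2, which with HSPA14 sits at the exit of the ribosome, stood at 19.0 FPKM in testis against 78.5 in ovary, and DNAJC21, which acts in maturation of the large ribosomal subunit, at 18.1 in testis against 58.9 in ovary. dnajc14 stood at 5.02 in testis against 18.6 in ovary, and 1 identifier of DNAJC5, a J protein of secretory vesicles, at 3.81 in testis against 9.37 in ovary. Towards testis were DNAJC12 (35.4 in testis, 1.48 in ovary), a partner of amino acid hydroxylases, and DNAJC27 (20.5 in testis, 2.22 in ovary), which joins a Rab-like domain to a J domain. dnajc4 stood at 30.3 in testis against 5.74 in ovary, dnajc18 at 66.2 in testis against 29.8 in ovary, and dnajc5gb at 7.49 in testis against 1.62 in ovary. The calls of dnajc18 and dnajc5gb were lost under both shifts.

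Several abundant type C genes lay within 2-fold. DNAJC9, which handles histones, stood at 113 FPKM in testis against 91.1 in ovary. DNAJC7, which binds both HSP70 and HSP90, stood at 102 in testis against 59.5 in ovary, and dnajc8, a gene linked to splicing, at 94.4 in testis against 78.7 in ovary. DNAJC24, needed for a modification of a translation factor, stood at 24.5 in testis against 27.4 in ovary. DNAJC17, also linked to splicing, stood at 7.36 in testis against 13.6 in ovary. The ER member DNAJC16 (ENSDARG00000060725) stood at 14.7 in testis against 14.6 in ovary. dnajc5ga stood at 14.1 in testis against 25.2 in ovary, the second identifier of DNAJC5 at 4.58 in testis against 6.99 in ovary, and DNAJC6, which uncoats clathrin vesicles, at 7.23 in testis against 3.33 in ovary; none of these reached 2-fold on the log2(FPKM + 1) scale. HSPBP1 and HSPBAP1, which meet the naming rule but are an HSP70 exchange factor and a binding partner of a small heat shock protein, stood at 26.0 and 8.34 FPKM in testis, against 16.1 and 11.5 in ovary.

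Gene copies with the same or sister symbols often had unlike ratios. In 16 pairs compared, the difference of log2 ratios between the copies ranged from 0.06 for dnajb1a and dnajb1b to 4.73 for the HSPA8 identifiers. It was 4.0 for DNAJB9, whose second identifier stood at 5.39 FPKM in testis against 2.41 in ovary. It was 3.17 for dnajc3a and dnajc3b, with dnajc3b at 7.54 FPKM in testis against 4.52 in ovary. DNAJC11 differed by 2.72 and the dnajc5ga and dnajc5gb pair by 2.49. Added together, the HSPA8 copies stood at 1224 FPKM in testis against 1042 in ovary. The second copy was a small part of the gene's level in both organs.

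**Figure D5:**
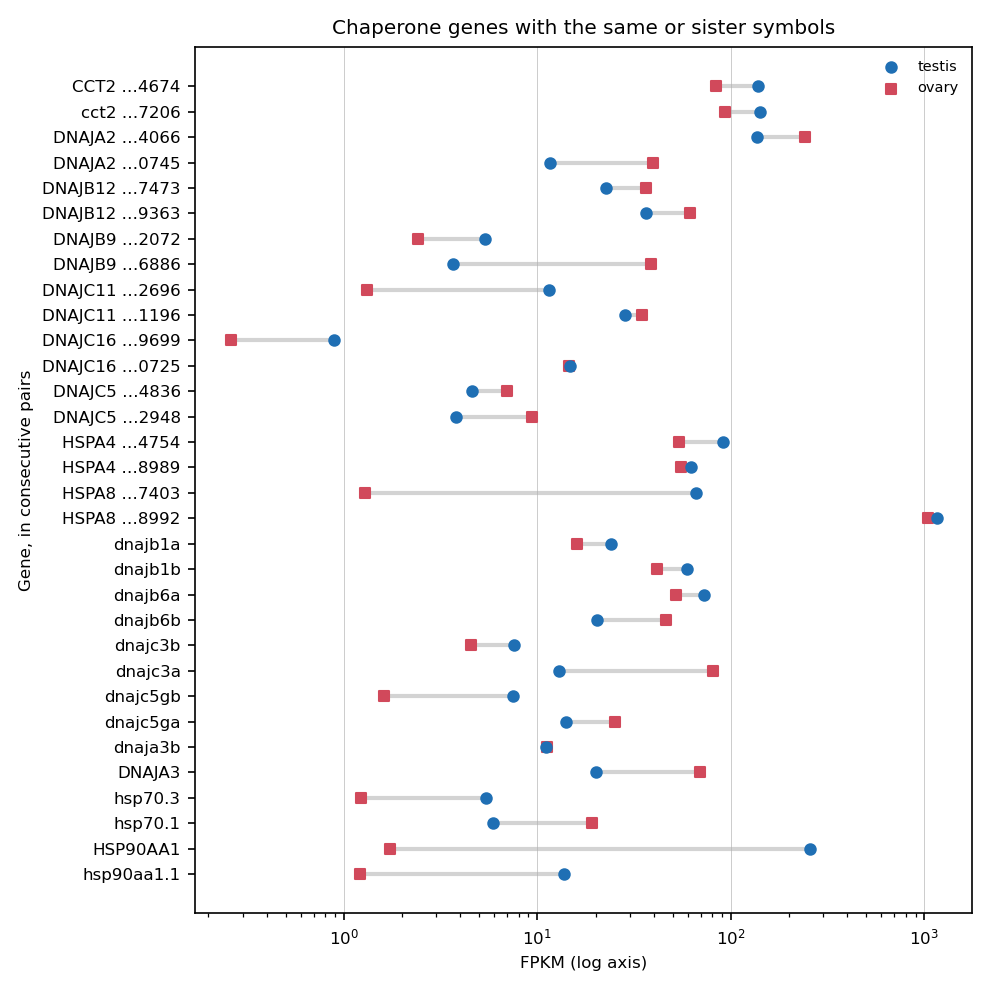
FPKM in testis (circles) and ovary (squares), on a log axis, of 16 pairs of genes that share a symbol or carry sister symbols, drawn in consecutive pairs, with the last digits of the identifier where a symbol repeats. The lines of CCT2, DNAJB12 and dnajb1 run alike within a pair, and those of HSPA8, DNAJB9, dnajc3 and DNAJC11 do not.

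Partners of HSP90 and HSP70 outside the naming rule gave calls in both directions. Of 28 HSP90 co-chaperone identifiers, 9 were called towards testis (32.1%, against 45.1% of all genes), 2 towards ovary (7.1%, against 16.6%) and 17 neither way. Among the 9, UNC45B and the second AHSA1 identifier were under 1 FPKM in ovary and could pass the minimum only through testis. The median log2 ratio of the 28 was 0.44, against 0.80 for all genes, and turned negative under both shifts (-0.36 and -0.53). By the mean of both libraries the most abundant were NUDC (132 FPKM in testis, 99.2 in ovary), PTGES3 (130 in testis, 93.3 in ovary), an HSP90 partner late in the folding cycle, and STIP1 (89.9 in testis, 125 in ovary), which joins HSP70 to HSP90. The extremes were the second AHSA1 identifier (5.56 in testis, 0.23 in ovary) and cdc37l1 (5.95 in testis, 38.2 in ovary). A list named for the R2TP complex, which assembles large complexes with HSP90, held 5 genes. Among them pih1d2 is a relative of the subunit gene pih1d1. Of the 5, 4 were called towards testis (80.0%, against 45.1% of all genes) and none towards ovary. Among the 4, pih1d2 was under 1 FPKM in ovary and could pass the minimum only through testis. Both shifts left 2 towards testis (40.0%, against 25.1% and 30.9% of all genes). RUVBL2 stood at 239 in testis against 91.8 in ovary, and RUVBL1 at 194 in testis against 109 in ovary. For rpap3 the values were 91.9 in testis and 20.02 in ovary, and for pih1d1 46.9 in testis and 17.45 in ovary. pih1d2 stood at 73.9 in testis against 0.07 in ovary. The median of that list, 1.38, dropped below 2-fold under both shifts (0.58 and 0.43).

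Of 13 HSP70 exchange factors and regulators, 4 were called towards testis, 4 towards ovary and 5 neither way. Each 4 is 30.8%, against 45.1% and 16.6% of all genes. Of those called towards testis, BAG2, BAG3 and HSPH1 were under 1 FPKM in ovary and could pass the minimum only through testis. The median shift gave 2 against 6 (15.4% and 46.2%, against 25.1% and 30.3% of all genes). The trimmed mean gave 2 against 8 (15.4% and 61.5%, against 30.9% and 32.8%). ST13 stood at 81.6 FPKM in testis against 92.0 in ovary, and GRPEL2, an exchange factor of mitochondria, at 87.5 in testis against 40.8 in ovary. On the log2(FPKM + 1) scale BAG3 had the largest ratio towards testis and HYOU1 the largest towards ovary, while the low gene BAG2 (5.13 in testis, 0.23 in ovary) had a larger plain FPKM ratio than BAG3. Genes known to respond to damaged proteins and other stress were mostly called towards testis, 12 of 16 that reached 1 FPKM (75%, against 45.1% of all genes), with 1 towards ovary and a median log2 ratio of 2.18. Under the shifts 8 and 9 of the 16 (50.0% and 56.3%) were called towards testis, against 25.1% and 30.9% of all genes. Of the genes called towards testis, BAG3, DDIT3, HMOX1, JUN, NFE2L2 and 1 GADD45A identifier were under 1 FPKM in ovary. They could pass the minimum only through testis. Ubiquitin genes were the most abundant, with ubc at 742 FPKM in testis against 777 in ovary, and the identifiers of UBB at 544 and 222 in testis, against 187 and 69.0 in ovary. The extremes were GADD45A (36.4 in testis, 1.77 in ovary) and ATF3 (3.83 in testis, 19.4 in ovary). The lists outside the naming rule held 118 identifiers in all. These include the stress genes just described, many of which are not chaperones and which were mostly called towards testis. Of the 118, 116 reached 1 FPKM. Of these, 37 (31.9%, against 45.1% of all genes) were called towards testis and 19 (16.4%, against 16.6%) towards ovary. Those of the 37 under 1 FPKM in ovary could pass the minimum only through testis. The median log2 ratio of the 116 was 0.35, against 0.80 for all genes. The median shift gave 19 against 45 (16.4% and 38.8%, against 25.1% and 30.3% of all genes). The trimmed mean gave 21 against 50 (18.1% and 43.1%, against 30.9% and 32.8%).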

How the data were processed

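RNA of 1 testis pool and 1 ovary pool, each of 3 adults, was sequenced. The authors deposited FPKM values, 1 column for each organ, with 24539 Ensembl identifiers, as the file headers show. Per the submitters' processing notes the tools were HISAT, Bowtie2 and RSEM, and the build was GRCz10. Tool versions, annotation and strand handling: not given in the sources used here. For near-identical copies and overlapping genes the division of reads is uncertain. A gene name table named 21881 identifiers, and the RefSeq table of GRCz12tu gave synonyms and neighbours only. The lowest value, 0.01 FPKM, held for 430 testis and 3540 ovary genes, and no fold is set against it. Read counts were not used, so absolute depth is unknown. FPKM are shares of a library, so a few very abundant genes lower all others. Log2 ratios (pseudocount 1) were computed with Python 3.11.15, NumPy 2.4.6 and pandas 2.3.3, and the calling step was tested on simulated data.

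The members and lists were chosen with earlier results of these data known. Every member may be named. From a list, the most abundant genes and both extremes are named, and others where a result turns on them, chosen after their values were seen. List symbols were matched by symbol, by a single synonym or without a final a or b. HSF2BP, HSPBP1 and HSPBAP1 were kept apart from the families. Alternative settings were a pseudocount of 0.1 or 5, no FPKM minimum or one of 5 or 10 (10 was chosen after seeing the data), a 4-fold rule and 3 scalings: the median log2 ratio set to 0, a trimmed mean, and the total without the 186 genes among the 100 most abundant of either library. J proteins on the cytosolic face of the ER were added to the ER members as a choice made after seeing the data. A last alternative left out the 18 members whose symbol several identifiers carry. Sequence features of the members were not analysed here.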

Additional observations from a re-analysis of the deposited data

How the results depend on the processing

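No paired analysis was possible because each organ has 1 library, and for the same reason no library could be left out. The counts towards testis over all genes were 4375 with a pseudocount of 5, 5331 with a minimum of 5 FPKM, 3770 with 10 FPKM, 4106 with the 4-fold rule, 4777 with the median set to 0 and 5687 with the trimmed mean. Towards ovary they were 1180, 5779 and 6019 under the last 3 of these settings. The members' counts under these 3 were 4, 32 and 33 towards ovary and 18, 18 and 19 towards testis. Under the 4-fold rule, ovary calls were 0 of 6 for DNAJA, 0 of 11 for mitochondrial members and 0 of 2 for HSP60 with HSP10. They were 1 of 13 for DNAJB, 1 of 29 for DNAJC and 1 of 15 for HSP70. For ER members they were 4 of 12, and for all genes 1180 of 19053. Of 3 heat shock factors, 1 was called towards testis, as with the median set to 0 and with the trimmed mean. With the median set to 0 and with the trimmed mean, ovary calls were 4 and 4 for DNAJA (66.7%) and 5 and 5 for DNAJB (38.5%). They were 14 and 15 for DNAJC (48.3% and 51.7%) and 6 and 6 for mitochondrial members (54.5%). For the 3 genes kept apart they were 1 and 1 (33.3%). The shares of all genes were 30.3% and 32.8%. DNAJB calls towards testis were 2 with a pseudocount of 5, with a minimum of 5 FPKM, with the 4-fold rule and with the median set to 0. A pseudocount of 0.1 gave 1 ER call towards testis, and counting the cytosol-facing J proteins as ER members gave 2, with a median log2 ratio of -0.98. Without the symbols carried by several identifiers, DNAJA had 1 ovary call and mitochondrial members 0 testis calls. Median log2 ratios with the median set to 0 and the trimmed mean were -1.41 and -1.56 for DNAJA, -1.70 and -1.87 for HSP60 with HSP10, -1.08 and -1.21 for mitochondrial members, and 0.54 and 0.42 for heat shock factors. The trimmed mean alone carried DNAJC to -1.10 and HSP90 to 0.97. Log2 ratios of summed FPKM became -1.51 and -1.69 for DNAJA, -1.02 and -1.20 for DNAJC, -1.70 and -1.88 for HSP60 with HSP10, -1.43 and -1.61 for HSP70, and 0.34 and 0.16 for the genes kept apart. Without the most abundant genes, HSP60 with HSP10 had a sum ratio of -1.04 and a median of -1.03. Without shared symbols the sum ratio was -2.299 for HSP70, which drops both HSPA8 identifiers, and 1.098 for DNAJB. With no minimum the small heat shock median was 0.80, as genes near 0 in both organs enter. Values under the 2 shifts follow from the shift itself; the cause of the difference in scale was not tested. No value past the 2-fold rule reversed under the settings run. For single genes under the 2 shifts this had to hold, as both move a log2 ratio by less than 1.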
